A study of Mus musculus with 12 samples.

Results

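The cadherins and protocadherins were followed in neural stem cells (NSCs) that lack Ncf1, a subunit of the Nox2 oxidase, with and without recombinant Igfbp2, a secreted protein that binds insulin-like growth factors. Members were chosen by symbol alone: genes listed as Cdh or Pcdh followed by a number (with an optional x), and the genes of the Pcdha, Pcdhb and Pcdhg clusters. Of 45792 listed genes, 94 carried such a symbol. They comprised 5 type I, 13 type II and 5 other Cdh genes, 12 non-clustered Pcdh genes (4 delta-1, 5 delta-2 and 3 others), and 59 clustered genes (15 Pcdha, 22 Pcdhb and 22 Pcdhg). The 94 identifiers held 91 symbols, since Pcdha4, Pcdha11 and Pcdhga8 were each listed under 2 identifiers.

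Primary NSCs from the forebrain of newborn mice were grown in serum-free medium with EGF and FGF, 4 cultures from WT pups and 4 from Ncf1-/- pups. A set of 4 Ncf1-/- cultures was given mouse recombinant Igfbp2 at 100 ng/ml, the dose in the sample labels (the study's methods give a lower one), 48 hours after plating, and RNA was collected 48 hours later. WT and Ncf1-/- cultures without Igfbp2 were collected at the same time. Per the study's methods, each pup was cultured separately and the Igfbp2-treated cultures came from the same Ncf1-/- pups as the untreated ones. The libraries are named here by their numbers, 9 to 12 for WT, 1 to 4 for Ncf1-/- and 5 to 8 for Igfbp2-treated Ncf1-/- NSCs. The loss of Ncf1 was germline, and no WT culture was given Igfbp2. Ncf1 itself had between 1 and 7 counts per library in all 3 groups and passed no expression filter, so that its counts could not check the genotype labels.

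Cadherins are adhesion proteins that bind across the gap between cells through calcium-dependent extracellular repeats. The classical type I and type II proteins hold adherens junctions together and are anchored to actin through catenins, and N-cadherin (Cdh2) does this between neural stem cells lining the ventricle. The delta-protocadherins are non-clustered proteins with roles in cell sorting and axon growth, whereas the clustered Pcdha, Pcdhb and Pcdhg genes give each neuron a combination of isoforms used in self-recognition. The variable first exons of the Pcdha genes, and likewise of the Pcdhg genes, are joined to constant exons common to the cluster, and the C-type genes at the ends of those clusters are less subject to random choice.

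Libraries held 18201622 to 34086554 RSEM expected counts, which are estimates of the reads from each gene. The members took 0.260% to 0.379% of them. WT libraries were spread more widely than the others, and WT libraries 11 and 12 were nearer the Ncf1-/- libraries on the first principal component than WT libraries 9 and 10. Summed oligodendrocyte markers were at 10843, 11269, 3212 and 6805 CPM (counts scaled to a common library size) in WT libraries 9 to 12, against 2177 to 2344 in Ncf1-/- libraries, with 2 of the 10 markers higher and 8 lower in Ncf1-/- NSCs. The defining myelin gene Mbp was at 3694, 3885, 327 and 1886 CPM in WT and 2.37 to 3.40 CPM in Ncf1-/- libraries, and Mog was at 0 in 3 Igfbp2-treated libraries. Summed astrocyte markers were at 5953 to 11206 CPM in WT and 2126 to 2732 CPM in Ncf1-/- libraries, with 0 of 6 higher and 5 lower. Neuronal markers summed to 602 to 773 and 489 to 554 CPM, with 0 of 8 higher and 4 lower. The progenitor genes Nes, Sox2, Vim and Fabp7 were detected in every library, and summed progenitor markers were at 3227 to 8972 CPM in WT and 8376 to 8956 CPM in Ncf1-/- libraries. Of the 8 progenitor markers 2 were higher and 5 lower in Ncf1-/- NSCs, with a median of -0.46. The part of these cell types in the differences given for WT was not tested, and in bulk RNA fewer cells of a type and less RNA per cell cannot be told apart. Between untreated and treated Ncf1-/- libraries, Y-linked genes summed to 105 to 116 and 7.79 to 9.18 CPM, with 4 of 4 genes lower after treatment, so that Igfbp2 treatment and sex-linked expression cannot be told apart. Xist, with a log2 fold change of 1.58, was not called between these groups. The Y-linked values go against treated and untreated cultures from the same pups, so the pairing is in doubt wherever the culture pair is used as a block below.

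Of the 94 members, 80 had enough counts to be tested. The other 14 (Pcdha1, Pcdha3, Pcdhb1, Pcdh12, Cdh1, Cdh3, Cdh5, Cdh9, Cdh12, Cdh15, Cdh16, Cdh17, Cdh18 and Cdh26) had at most 29 counts in any library. These included E-cadherin (Cdh1, 0.0557 to 0.324 CPM in WT libraries), the epithelial type I cadherin, and VE-cadherin (Cdh5), the endothelial type II cadherin, which was at 0 in 10 of 12 libraries. Neither defining cadherin of epithelium or endothelium was therefore present beyond trace counts.

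Between Ncf1-/- and WT NSCs, 64 of the 80 members tested changed, 9 higher and 55 lower (edgeR quasi-likelihood test, Benjamini-Hochberg adjusted over 15706 genes). Among all genes tested 57.2% changed, 28.9% higher and 28.2% lower. The median log2 fold change was -0.88 over the members and 0.02 over all genes. Groups of libraries did not overlap for 61 of the 80 members, against 51.2% of all genes. A sheet in the study's code names WT library 12 as apocynin-treated, against its label; without it 65 of 81 members tested were called, 7 higher and 58 lower. Leaving out WT libraries 11 and 12 together, a choice made after the data were seen, gave 63 members of 81 tested, 9 higher and 54 lower, and 61 of the 64 calls were kept in their direction. The classes moved unequally: of the tested genes, 5 of 11 classical cadherins were higher and 3 lower, 1 of 11 non-clustered protocadherins was higher and 8 were lower, and 3 of 56 clustered protocadherins were higher and 44 were lower.

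The balance between classes can also be read within a library, where no scaling between libraries enters. The sum of clustered protocadherins was 2.82, 2.75, 2.32 and 3.08 times the sum of classical cadherins in WT libraries 9 to 12, and 1.75, 1.66, 1.64 and 1.51 times in Ncf1-/- libraries 1 to 4. Every WT ratio was above every Ncf1-/- ratio. Igfbp2-treated libraries had ratios of 1.99, 1.98, 1.75 and 2.0, which met the Ncf1-/- range in library 7 and lay below the WT range. For the non-clustered protocadherins the ratio to the classical sum was 1.17 to 2.09 in WT, 0.629 to 0.645 in Ncf1-/- and 0.643 to 0.720 in Igfbp2-treated libraries, with no overlap between WT and either other group.

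Among type I cadherins, N-cadherin (Cdh2) had the highest level per kilobase of transcript of all non-clustered members over the 12 libraries and did not pass the test, whereas R-cadherin (Cdh4) rose. Cdh2 was at 239, 264, 363 and 272 CPM in WT libraries 9 to 12, 237, 247, 253 and 305 CPM in Ncf1-/- libraries 1 to 4 and 236, 269, 299 and 275 CPM in Igfbp2-treated libraries 5 to 8. The 3 groups overlapped, with WT library 11 the highest of all, and the log2 fold change of Ncf1-/- against WT was -0.13 ± 0.13, adjusted p = 0.42. Cdh4 (chr2:179442431-179899373, plus strand, GRCm38), a retinal and brain cadherin, was at 32.1, 43.6, 108 and 64.7 CPM in WT and 137, 153, 152 and 176 CPM in Ncf1-/- libraries. All 4 Ncf1-/- libraries lay above all 4 WT libraries, and WT libraries 11 and 12 were the highest of the WT group. On the log2 scale the rise was 1.32 ± 0.27, adjusted p = 0.0011, and it became 1.99 without those 2 libraries. In Igfbp2-treated libraries Cdh4 was at 214, 225, 239 and 228 CPM, again with no overlap with Ncf1-/-. That step of 0.55 ± 0.27, adjusted p = 0.15, did not pass the test over 12 libraries. It was 0.28 (adjusted p = 0.46) with library totals and 0.056 (adjusted p = 0.90) on log2(TPM + 1), again without passing. It passed when the 8 Ncf1-/- libraries were fitted without WT, both unpaired (0.50, adjusted p = 6.1e-04) and with the culture pair as a block (0.50, adjusted p = 0.0015), and without WT library 11 (adjusted p = 0.021). Within each library, Cdh4 was 0.134 to 0.296 times Cdh2 in WT, 0.579 to 0.618 times in Ncf1-/- and 0.797 to 0.905 times in Igfbp2-treated NSCs, a pair chosen after its values were seen.

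The type II cadherins went in both directions: of 9 tested, 4 rose (Cdh19, Cdh20, Cdh22 and Cdh24) and 3 fell (Cdh6, Cdh8 and Cdh11) in Ncf1-/- NSCs, while Cdh7 and Cdh10 did not pass. Cdh8 fell from a level near the floor, with means of 0.262 CPM per kilobase in WT and 0.084 in Ncf1-/- NSCs. Cdh20 and Cdh22, cadherins of restricted brain regions, both rose, and the 250 bases before their RefSeq starts (GRCm38.p6) are given for the comparison with the delta-2 protocadherins. The search covered CAGGTG, the E-box that Snail and Zeb repressors bind, and ACAAAG, a core that Sox factors bind, each on both strands; these 2 motifs cannot be parts of one another. Neither window held either motif, and the windows differed in CpG content, with 10 CG dinucleotides for Cdh20 and 30 for Cdh22.
Cdh20 (chr1:104768270-104768519, plus strand): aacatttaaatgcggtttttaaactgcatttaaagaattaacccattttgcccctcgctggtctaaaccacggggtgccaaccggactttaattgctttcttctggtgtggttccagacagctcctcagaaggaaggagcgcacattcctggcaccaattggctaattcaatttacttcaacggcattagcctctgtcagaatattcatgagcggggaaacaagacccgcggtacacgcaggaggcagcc
Cdh22 (chr2:165234738-165234987, minus strand): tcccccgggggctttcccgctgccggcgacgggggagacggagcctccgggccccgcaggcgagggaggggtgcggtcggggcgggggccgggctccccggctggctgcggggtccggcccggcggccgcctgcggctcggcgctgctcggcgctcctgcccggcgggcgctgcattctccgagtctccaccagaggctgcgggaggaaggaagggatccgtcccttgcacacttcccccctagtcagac
Over 32851 RefSeq windows of this length, 17.2% held CAGGTG and 16.5% held ACAAAG, with a median of 6 CG dinucleotides (quartiles 2 and 16).

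Cdh20 (chr1:104768529-104995481, plus strand) was at 58.7, 52.9, 60.6 and 58.2 CPM in WT libraries 9 to 12 and 106, 109, 108 and 125 CPM in Ncf1-/- libraries 1 to 4. WT values were close together and all lay below the Ncf1-/- values, of which library 4 was the highest, and the log2 fold change was 0.96 ± 0.08, adjusted p = 6.8e-07. Igfbp2-treated libraries, at 109.8 to 125 CPM, overlapped with Ncf1-/-. Cdh22 (chr2:165111507-165234853, minus strand) was at 13.3, 15.2, 57 and 29.4 CPM in WT and 57.3, 61.7, 62.6 and 67.2 CPM in Ncf1-/- libraries. WT library 11 was only just below the lowest Ncf1-/- library, number 1. The log2 fold change of Cdh22 was 1.10 ± 0.34, adjusted p = 0.014, which became 1.69 without WT library 11 and 2.08 without WT libraries 11 and 12. Cdh19 (chr1:110888326-110977584, minus strand), known from glial precursors of peripheral nerve, was at 8.14, 7.18, 22.3 and 15.3 CPM in WT and 39.1, 38.6, 38.9 and 44.7 CPM in Ncf1-/- libraries. The groups did not overlap, WT library 11 was again the highest of its group, and the log2 fold change was 1.59 ± 0.28, adjusted p = 3.2e-04 (2.35 without WT libraries 11 and 12). The Schwann cell and neural crest markers summed to 8.80 to 15.6 CPM in WT and 32.8 to 40.9 CPM in Ncf1-/- libraries, with Foxd3 at 0 in all 12 libraries. Of the 3 such markers tested, 3 were higher and 0 lower in Ncf1-/- NSCs, with a median of 1.97. Their part in the rise of Cdh19 was not tested.

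Cdh11 (chr8:102632095-102785642, minus strand), a mesenchymal cadherin also made by neural and glial precursors, fell in Ncf1-/- NSCs and was lower still after Igfbp2. It was at 179, 197, 129.8 and 121 CPM in WT libraries 9 to 12, 55.5, 57.6, 54.3 and 54.2 CPM in Ncf1-/- libraries 1 to 4 and 35.9, 35.9, 31.5 and 34.7 CPM in Igfbp2-treated libraries 5 to 8. The 3 groups were fully separate, and WT libraries 11 and 12, with the fewest oligodendrocyte marker counts, had the lowest WT values. The log2 fold change was -1.5 ± 0.14, adjusted p = 1.4e-06, between the genotypes and -0.68 ± 0.14, adjusted p = 0.0044, between the treatments. Of 6 mural and fibroblast markers tested, 4 were higher and 1 lower in Ncf1-/- NSCs, and 3 were higher and 0 lower after Igfbp2. The part of oligodendrocyte, mural or fibroblast cells in the values of Cdh11 was not tested. Within a library the ratio of Cdh11 to Cdh20, chosen after its values were seen, was 2.09 to 3.73 in WT, 0.433 to 0.527 in Ncf1-/- and 0.252 to 0.327 in Igfbp2-treated NSCs. Cdh6 (chr15:13028701-13173675, minus strand), a kidney and early neural cadherin, was at 22.8, 20.5, 30.5 and 27.8 CPM in WT and 16.1, 18, 17.6 and 21.3 CPM in Ncf1-/- libraries, with an overlap between WT library 10 and Ncf1-/- library 4. Its log2 fold change of -0.48 ± 0.13, adjusted p = 0.0079, no longer passed without WT libraries 11 and 12 (-0.29, adjusted p = 0.063), with library totals (-0.30, adjusted p = 0.11) or on log2(TPM + 1) (-0.36, adjusted p = 0.19).

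**Figure D1:**
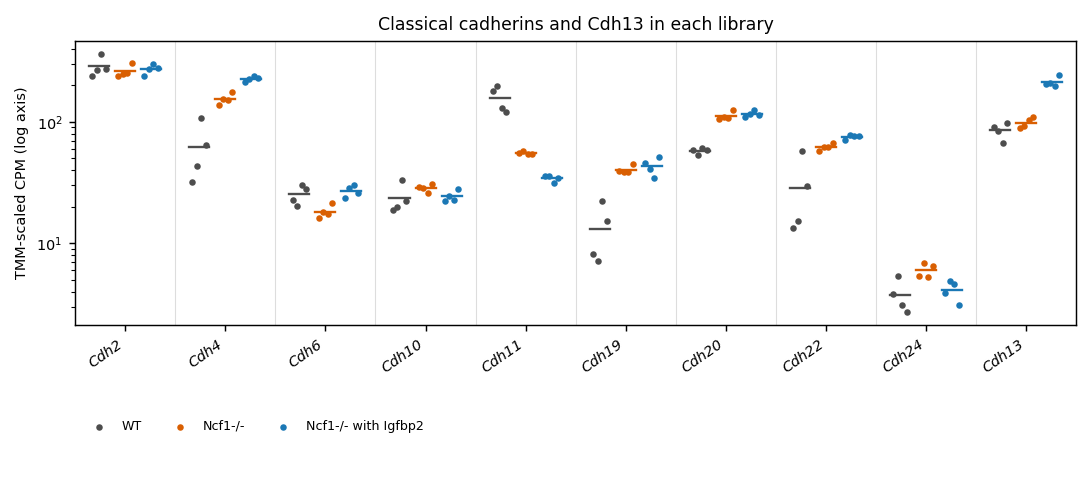
TMM-scaled CPM (log axis) of the 9 classical cadherins that averaged at least 1 CPM and of Cdh13 in each of 12 libraries, with WT in grey, Ncf1-/- in orange and Igfbp2-treated Ncf1-/- in blue; points are libraries and bars are group means. Cdh2 overlaps in all groups, Cdh4, Cdh19, Cdh20 and Cdh22 lie higher and Cdh11 lower in Ncf1-/- than in WT, and only Cdh13 and Cdh11 of those drawn were called between the treatments under every scaling.

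Most non-clustered protocadherins fell in Ncf1-/- NSCs. Of 11 tested, 1 rose and 8 fell, with a median log2 fold change of -1.17, and all 5 delta-2 genes were called. Pcdh10, Pcdh17 and Pcdh8 were the 3 delta-2 genes with the largest falls and Pcdh18 was the only one that rose, so the 250 bases before their RefSeq starts are set side by side; capitals mark ACAAAG or its reverse complement CTTTGT.
Pcdh10 (chr3:45378148-45378397, plus strand): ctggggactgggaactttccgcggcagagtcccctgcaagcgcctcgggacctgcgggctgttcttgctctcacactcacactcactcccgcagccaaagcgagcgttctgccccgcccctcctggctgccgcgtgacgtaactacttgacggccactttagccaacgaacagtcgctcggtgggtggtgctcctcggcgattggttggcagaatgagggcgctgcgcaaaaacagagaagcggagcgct
Pcdh17 (chr14:84443313-84443562, plus strand): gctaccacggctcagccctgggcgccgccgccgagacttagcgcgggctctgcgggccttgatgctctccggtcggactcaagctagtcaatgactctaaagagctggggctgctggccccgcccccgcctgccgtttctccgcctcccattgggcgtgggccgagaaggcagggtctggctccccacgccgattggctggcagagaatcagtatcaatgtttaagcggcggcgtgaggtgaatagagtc
Pcdh8 (chr14:79771313-79771562, minus strand): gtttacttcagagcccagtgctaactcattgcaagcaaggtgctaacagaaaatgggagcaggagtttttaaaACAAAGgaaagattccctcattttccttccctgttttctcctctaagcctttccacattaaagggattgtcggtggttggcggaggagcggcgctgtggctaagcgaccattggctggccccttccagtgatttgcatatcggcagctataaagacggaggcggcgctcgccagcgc
Pcdh18 (chr3:49757317-49757566, minus strand): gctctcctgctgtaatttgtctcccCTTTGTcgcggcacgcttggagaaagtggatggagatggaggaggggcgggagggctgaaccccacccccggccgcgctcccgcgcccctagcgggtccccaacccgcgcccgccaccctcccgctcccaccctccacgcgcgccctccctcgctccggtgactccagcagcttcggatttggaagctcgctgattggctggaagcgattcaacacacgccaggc
ACAAAG was found 177 bases before the start of Pcdh8, which fell, and 225 bases before the start of Pcdh18, which rose, and in neither of the other two. No window of the 4 held CAGGTG. The windows held 22, 21, 11 and 23 CG dinucleotides in the order given, against the median of 6 over all windows. Of the 22 members with a window, 2 held CAGGTG and 5 held ACAAAG in at least 1 window.

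Pcdh10 (chr3:45378398-45435623, plus strand), a delta-2 protocadherin that links to the actin regulators of the WAVE complex, was the most abundant non-clustered member per kilobase in WT. It was at 395, 474, 425 and 398 CPM in WT libraries 9 to 12, 141, 149, 144 and 159 CPM in Ncf1-/- libraries 1 to 4 and 131, 154, 139.9 and 153 CPM in Igfbp2-treated libraries 5 to 8. Every WT library was above every library of the other groups, which overlapped with each other, and WT libraries 11 and 12 were not apart from 9 and 10. The log2 fold change was -1.51 ± 0.09, adjusted p = 6.4e-08, between the genotypes and -0.04 ± 0.09, adjusted p = 0.77, between the treatments. Per kilobase, Pcdh10 took 23.8% ± 0.686 of the summed level of all non-clustered members in WT and 10.6% ± 0.823 in Ncf1-/- NSCs, while Cdh2 took 15.3% ± 2.78 and 19.7% ± 1.08.

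**Figure D2:**
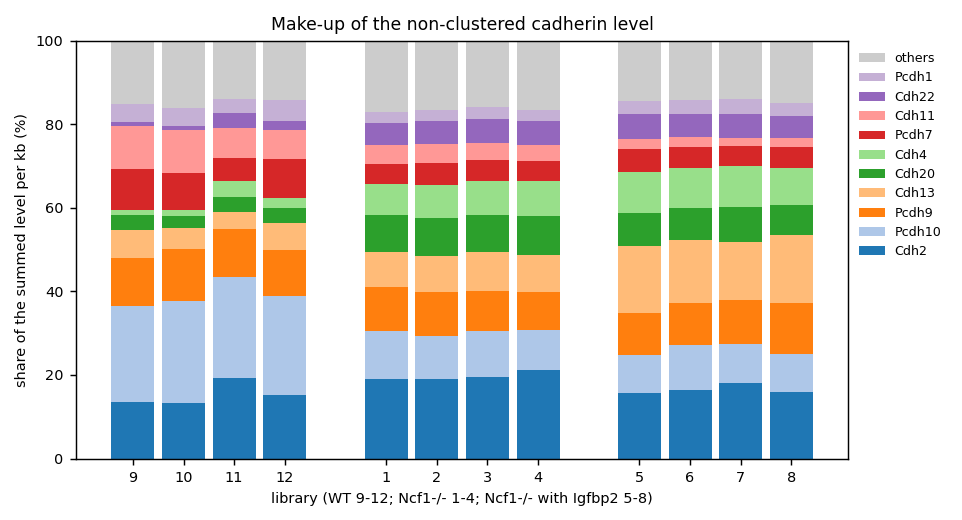
Share (%) of the summed level per kilobase of all non-clustered Cdh and Pcdh members taken by the 10 most abundant of them, as 1 stacked bar per library, grouped as WT, Ncf1-/- and Igfbp2-treated Ncf1-/-. Pcdh10 takes 23.8% on average in WT and 10.6% in Ncf1-/- libraries, and the segment of Cdh13 averages 8.74% in Ncf1-/- and 15.3% in Igfbp2-treated libraries.

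Pcdh17 (chr14:84443563-84539002, plus strand), a delta-2 protocadherin of axons and synapses, had a wider spread. It was at 171, 242, 79.8 and 125 CPM in WT and 36, 37.3, 35.8 and 42.5 CPM in Ncf1-/- libraries. WT library 11 was the lowest of its group, but still above every Ncf1-/- library, and the log2 fold change was -2.02 ± 0.26, adjusted p = 2.4e-05. Pcdh8 (chr14:79766775-79771312, minus strand), which takes part in cell sorting during segmentation and in endocytosis at synapses, had the largest fall of all members. It was at 18.8, 28.6, 8.38 and 11.1 CPM in WT and 1.48, 1.31, 2.34 and 1.27 CPM in Ncf1-/- libraries, with no overlap and a log2 fold change of -3.38 ± 0.36, adjusted p = 5.4e-06. Its WT values followed the same order as those of Pcdh17, with library 10 highest and library 11 lowest. Pcdh18 (chr3:49743296-49757325, minus strand) was at 3.37, 4.91, 4.70 and 2.84 CPM in WT and 6.80, 8.22, 7.86 and 9.33 CPM in Ncf1-/- libraries, a low level with a log2 fold change of 1.02 ± 0.23, adjusted p = 0.0019. Pcdh19, a delta-2 gene on the X chromosome that acts with N-cadherin in adhesion, was at 37.4 to 45.5 CPM in WT and 27 to 41.6 CPM in Ncf1-/- libraries, which overlapped, and its log2 fold change was -0.39 ± 0.15, adjusted p = 0.038.

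Of the 4 delta-1 genes, Pcdh1, Pcdh7 and Pcdh9 fell in Ncf1-/- NSCs and Pcdh11x did not pass. Pcdh9 (chr14:93013410-93890679, minus strand), a brain delta-1 gene, was at 151, 166, 149 and 145 CPM in WT libraries, 88.6, 90.2, 87.5 and 95.7 CPM in Ncf1-/- libraries and 117, 133, 121 and 158 CPM in Igfbp2-treated libraries. The Ncf1-/- libraries lay below both other groups, and the highest treated library, 8, was within the WT range. Between the genotypes the log2 fold change was -0.75 ± 0.09, adjusted p = 1.9e-05. Pcdh1, an adhesion protein of epithelia and brain, was at 71.2, 83.2, 63.2 and 86.9 CPM in WT, 32.1, 32.1, 33.6 and 37.4 CPM in Ncf1-/- and 47.9, 54, 59.6 and 51.1 CPM in Igfbp2-treated libraries. The 3 groups were separate, with the treated libraries between the others, and the log2 fold change between the genotypes was -1.17 ± 0.11, adjusted p = 1.7e-06. Pcdh7 was at 111 to 202 CPM in WT and 63.3 to 86.1 CPM in Ncf1-/- libraries, and Pcdh11x at 19.4 to 29.9 and 23 to 29.5 CPM. Pcdh15 (chr10:73099342-74649737, plus strand), the tip-link protocadherin of hair cells, which is also expressed in glial precursors, was at 42.8, 51.9, 43.7 and 38.2 CPM in WT and 18.4, 18.1, 17.1 and 18.4 CPM in Ncf1-/- libraries. These groups did not overlap, and the log2 fold change was -1.29 ± 0.10, adjusted p = 6.3e-07.

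**Figure D3:**
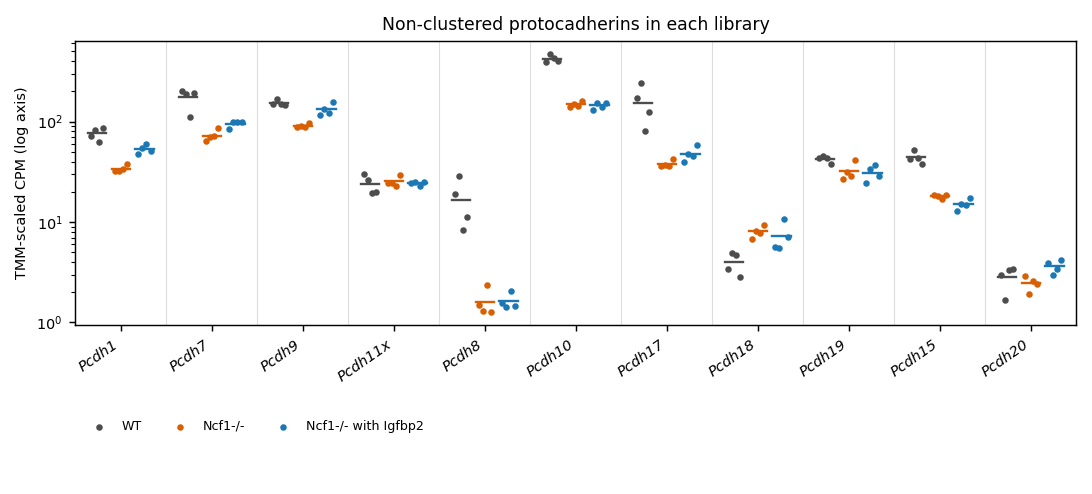
TMM-scaled CPM (log axis) of 11 non-clustered protocadherins in each of 12 libraries, ordered as delta-1 (Pcdh1 to Pcdh11x), delta-2 (Pcdh8 to Pcdh19) and others (Pcdh15, Pcdh20); points are libraries and bars are group means. Pcdh8, Pcdh10 and Pcdh17 lie lower in both Ncf1-/- groups than in WT, Pcdh18 lies higher, and the treated Pcdh1 and Pcdh9 values lie above the untreated ones on this scale.

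The clusters differed from each other. In Ncf1-/- NSCs, all 21 Pcdhb genes tested and 20 of 22 Pcdhg genes fell, whereas 1 of 13 Pcdha genes rose, 3 fell and 9 did not pass. Since RSEM divides reads on shared constant exons among the genes of a cluster, the sums over each cluster were fitted as well. The Pcdhb genes, each made of 1 large exon, summed to 188, 205, 172 and 153 CPM in WT libraries 9 to 12, 73.1, 71.5, 73.2 and 74.9 CPM in Ncf1-/- libraries 1 to 4 and 68.1, 85.2, 74.6 and 81.2 CPM in Igfbp2-treated libraries 5 to 8. All WT sums were above all others, the treated and untreated sums overlapped, and the log2 fold change between the genotypes was -1.30 ± 0.10, adjusted p = 3.7e-07. The Pcdhg sum was 1409.9, 1485, 1669 and 1715 CPM in WT, 1095, 1093, 1075 and 1151 CPM in Ncf1-/- and 1401, 1496, 1388 and 1543 CPM in Igfbp2-treated libraries. Here the Ncf1-/- libraries lay below both other groups, and the log2 fold change between the genotypes was -0.51 ± 0.10, adjusted p = 5.5e-04. The Pcdha sum includes ENSMUSG00000103458, listed as Pcdha4, a gene model that in GENCODE reaches into the Pcdhg cluster and was at 0 to 1.0 CPM in the 12 libraries. This sum was 28.1, 35, 39.6 and 28.6 CPM in WT and 31.1, 33.6, 31.7 and 34.2 CPM in Ncf1-/- libraries, which overlapped, and its log2 fold change of -0.01 ± 0.10, adjusted p = 0.93, did not pass.

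Within a library, the Pcdhb sum was 0.134, 0.138, 0.103 and 0.0895 times the Pcdhg sum in WT libraries 9 to 12 and 0.0667, 0.0654, 0.0682 and 0.0651 times in Ncf1-/- libraries 1 to 4. In Igfbp2-treated libraries the ratio was 0.0486, 0.0569, 0.0538 and 0.0526. The 3 groups were separate, with WT libraries 11 and 12 the lowest of the WT group and still above all others.

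Genes of a cluster fell by different amounts. The 2 most abundant Pcdhb genes were Pcdhb19, at 27.2, 28.9, 25.7 and 18 CPM in WT and 9.28, 10.4, 10.1 and 11.5 CPM in Ncf1-/- libraries, and Pcdhb22, at 19.8, 23.7, 22.5 and 15.2 and 10.9, 11, 11.3 and 12.5 CPM. WT library 12 was the lowest WT library for both and lay above all Ncf1-/- libraries, with log2 fold changes of -1.28 ± 0.13, adjusted p = 3.7e-06, and -0.83 ± 0.13, adjusted p = 1.2e-04. Log2 fold changes of the 21 Pcdhb genes ran from -2.06 for Pcdhb15 to -0.69 for Pcdhb12, with a median of -1.28. All 12 Pcdhga and all 7 Pcdhgb genes fell, with medians of -0.98 and -0.71. Pcdhga7, the most abundant of them, was at 45.3, 53.7, 45.8 and 55 CPM in WT and 24.7, 22.3, 24.2 and 26.1 CPM in Ncf1-/- libraries, with no overlap and a log2 fold change of -1.04 ± 0.10, adjusted p = 1.7e-06.

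The C-type genes did not move together. Of the 5, 3 rose (Pcdhac2, Pcdhgc4 and Pcdhgc5), 1 fell (Pcdhgc3) and Pcdhac1 did not pass. The calls of Pcdhgc4 and Pcdhgc5 were lost without some single libraries, as given below. Pcdhac2, the C-type gene that serotonergic axons need for their spacing, was at 7.91, 7.72, 9.21 and 10.4 CPM in WT libraries 9 to 12, 13, 14.6, 13.9 and 15.4 CPM in Ncf1-/- libraries 1 to 4 and 22.4, 22.2, 24.5 and 21.9 CPM in Igfbp2-treated libraries 5 to 8. The 3 groups formed separate steps, and the log2 fold change was 0.69 ± 0.10, adjusted p = 9.0e-05, between the genotypes. Its share of the Pcdha sum was 22.1 to 36.4% in WT and 41.7 to 45.2% in Ncf1-/- libraries. Pcdhgc3, which takes most of the Pcdhg reads, was at 885, 909, 1052 and 1131 CPM in WT and 749.7, 740.1, 745 and 791 CPM in Ncf1-/- libraries. Its fall of -0.39 ± 0.10, adjusted p = 0.0036, was smaller in size than the median of the Pcdhga genes, and it did not pass with library totals (-0.22, adjusted p = 0.087) or on log2(TPM + 1) (-0.34, adjusted p = 0.11). Its share of the Pcdhg sum was 61.2 to 65.9% in WT and 67.7 to 69.3% in Ncf1-/- libraries, without overlap. Both shares, and all single-gene values in the Pcdha and Pcdhg clusters, rest on RSEM's division of reads on shared exons.

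Pcdhgc4, the isoform that keeps interneurons alive, is listed under the symbol Pcdhga8 with the identifier ENSMUSG00000023036, and was named here from the GENCODE annotation. It was at 16.6, 22.5, 27.3 and 19.4 CPM in WT and 27.8, 29.9, 26.9 and 27.5 CPM in Ncf1-/- libraries, an overlap in WT library 11. Its log2 fold change of 0.38 ± 0.13, adjusted p = 0.026, was lost without Ncf1-/- library 2 (adjusted p = 0.062), Ncf1-/- library 4 (0.058), WT library 9 (0.073) or WT library 12 (0.086), and on log2(TPM + 1) (0.42, adjusted p = 0.084). Pcdhgc5 was at 11.2, 13.4, 18.4 and 17.8 CPM in WT, 21.3, 20.6, 18.5 and 20.1 CPM in Ncf1-/- and 32.5, 38.2, 40.6 and 37.1 CPM in Igfbp2-treated libraries. WT libraries 11 and 12 were only just below the lowest Ncf1-/- library, number 3. The log2 fold change of 0.40 ± 0.14, adjusted p = 0.026, between the genotypes was likewise lost without Ncf1-/- libraries 1, 2 or 4 or WT libraries 9 or 10, 1 at a time, with adjusted p between 0.052 and 0.086. In the Pcdha cluster, Pcdha12 was at 3.90 to 7.60 CPM in WT and 4.57 to 5.52 CPM in Ncf1-/- libraries, and did not pass (-0.21 ± 0.18, adjusted p = 0.35), except without WT library 12 (-0.38, adjusted p = 0.046).

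**Figure D4:**
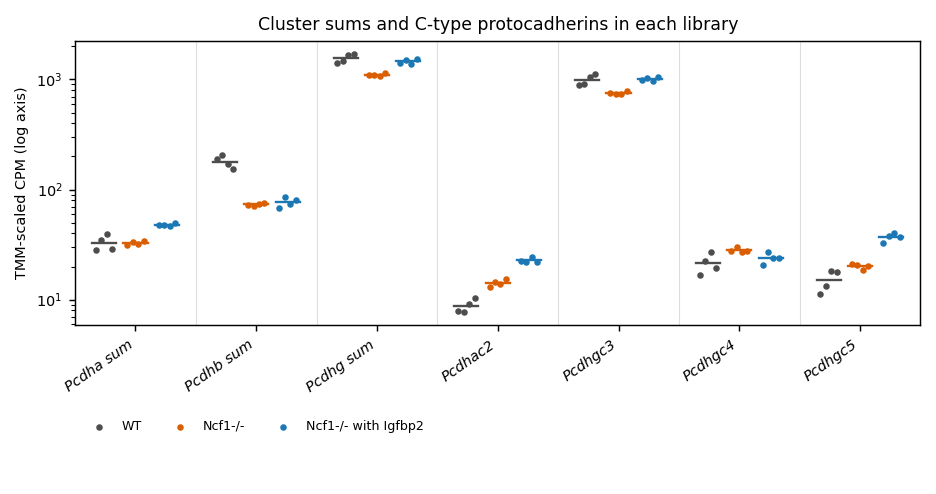
TMM-scaled CPM (log axis) of the Pcdha, Pcdhb and Pcdhg sums and of 4 C-type genes in each of 12 libraries; points are libraries and bars are group means. The Pcdhb sum lies lower in both Ncf1-/- groups, the Pcdhg sum and Pcdhgc3 lie lowest in untreated Ncf1-/- NSCs, and Pcdhac2 and Pcdhgc5 lie higher in Ncf1-/- than in WT and highest in Igfbp2-treated NSCs on this scale.

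Between Igfbp2-treated and untreated Ncf1-/- NSCs, 24 of 80 members changed, 22 higher and 2 lower, while 25.0% of all genes changed, 14.2% higher and 10.7% lower. Groups did not overlap for 32 of the 80 members, against 34.1% of all genes. The median was 0.25 over the members and 0.04 over all genes. This split depended on the scaling between libraries: scaled by library totals instead of TMM factors, 9 members were higher and 10 lower, with a median over all genes of -0.23, and on log2(TPM + 1) 2 were higher and 12 lower, with a median of -0.30. The median of the members stayed 0.21 above that of all genes in each of these 3 settings. By class, 12 of 22 Pcdhg genes, 3 of 13 Pcdha genes and 3 of 21 Pcdhb genes were higher, with none lower, as were 2 of 4 delta-1 and 0 of 5 delta-2 genes. Of 11 classical cadherins 1 was higher and 2 were lower.

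T-cadherin (Cdh13, chr8:118283733-119324921, plus strand), which lacks a cytoplasmic part and is held in the membrane by a GPI anchor, had the largest rise after Igfbp2 among the non-clustered members. It was at 90.5, 83.6, 67.5 and 97.7 CPM in WT libraries 9 to 12, 89, 91.6, 103 and 109 CPM in Ncf1-/- libraries 1 to 4 and 206, 209, 197 and 242 CPM in Igfbp2-treated libraries 5 to 8. WT and untreated libraries overlapped, and every treated library was above all 8 others. The log2 fold change was 1.12 ± 0.12, adjusted p = 3.6e-04, between the treatments. It remained a rise with library totals (0.85, adjusted p = 2.8e-04) and on log2(TPM + 1) (0.59, adjusted p = 0.0092). Against WT, untreated Ncf1-/- NSCs differed by 0.21 ± 0.12, adjusted p = 0.14, which passed only with library totals (0.40, adjusted p = 0.0067). T-cadherin is also made by vessels, and endothelial markers summed to 4.57 to 8.84 CPM in untreated and 11.8 to 16.8 CPM in treated libraries, and mural and fibroblast markers to 11.5 to 14.6 and 24 to 27.9 CPM, with 3 of 6 tested mural and fibroblast genes higher. Of 3 endothelial genes tested 1 was higher. The part of these cell types in the rise of Cdh13 was not tested.

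Cdh11 was the largest fall by this treatment among members averaging at least 1 CPM, and it was called lower with library totals (-0.96) and on log2(TPM + 1) (-1.01) as well. The other member called lower, Cdh7, had a mean under 1 CPM. Cdh6 was at 23.6, 28.6, 30.4 and 25.8 CPM in treated libraries, all above the untreated libraries, with a log2 fold change of 0.57 ± 0.13, adjusted p = 0.01. It did not pass with library totals (0.30, adjusted p = 0.14) or on log2(TPM + 1) (0.08, adjusted p = 0.78). Cdh2, Cdh19 and Cdh20 had log2 fold changes between 0.05 and 0.10 and did not pass. Cdh22 was higher in every treated library (70.9, 77.7, 76.4 and 76 CPM) than in any untreated one, with a log2 fold change of 0.27 ± 0.33, adjusted p = 0.57, and was called in the fit without WT libraries, both unpaired (0.23, adjusted p = 0.025) and with the culture pair as a block (0.23, adjusted p = 0.026).

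Pcdh1 and Pcdh9 were higher after Igfbp2, with log2 fold changes of 0.65 ± 0.11, adjusted p = 0.0019, and 0.55 ± 0.09, adjusted p = 0.0023. Both were called with library totals (0.38 and 0.27), whereas on log2(TPM + 1) Pcdh1 did not pass (0.14) and Pcdh9 turned to -0.09 without passing. Pcdh10, Pcdh8, Pcdh18 and Pcdh19 had overlapping libraries in the treated and untreated groups, with log2 fold changes of -0.04, 0.04, -0.14 and -0.06. Pcdh17 (39.2, 47.6, 45.8 and 57.9 CPM in treated libraries, 0.33 ± 0.25, adjusted p = 0.36) and Pcdh15 (12.8, 15.1, 14.8 and 17.3 CPM, -0.26 ± 0.11, adjusted p = 0.086) passed only in some settings. Fitted without WT libraries, Pcdh17 passed with the culture pair as a block (0.27, adjusted p = 0.03) and not unpaired (0.28, adjusted p = 0.062), whereas Pcdh15 passed both ways (-0.32, adjusted p = 0.036 and -0.31, adjusted p = 0.024). With library totals Pcdh10 (-0.31, adjusted p = 0.023) and Pcdh15 (-0.54, adjusted p = 0.0032) were called lower, as was Pcdh15 on log2(TPM + 1) (-0.50, adjusted p = 0.017). Pcdh17 did not pass with library totals (0.055, adjusted p = 0.88) or on log2(TPM + 1) (-0.11, adjusted p = 0.69).

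In the clusters, the Pcdha sum was 47.6, 48, 47 and 49.9 CPM in treated libraries 5 to 8, all above the untreated libraries, a log2 fold change of 0.56 ± 0.10, adjusted p = 0.0028. The Pcdhg sum rose by 0.40 ± 0.10, adjusted p = 0.011, and the Pcdhb sum differed by 0.08 ± 0.10, adjusted p = 0.58. With library totals the Pcdha and Pcdhg values were 0.29 (adjusted p = 0.07) and 0.13 (0.34), and on log2(TPM + 1) 0.11 (0.62) and -0.09 (0.67), the last in the other direction. Pcdhgc3, at 989, 1022, 958 and 1054 CPM in treated libraries, rose by 0.41 ± 0.10, adjusted p = 0.01, and on log2(TPM + 1) it turned to -0.07 (adjusted p = 0.75). With library totals it did not pass (0.14, adjusted p = 0.31). Of the 12 Pcdhga genes 9 were higher, with a median of 0.44, against 1 of 7 Pcdhgb genes, with a median of 0.19. Pcdhga7, at 31.2, 39.8, 35.4 and 37.3 CPM in treated libraries, all above the untreated ones, rose by 0.56 ± 0.10, adjusted p = 0.0022. This was 0.29 (adjusted p = 0.033) with library totals and did not pass on log2(TPM + 1) (0.049, adjusted p = 0.83). The C-type genes Pcdhac2 (0.68 ± 0.10, adjusted p = 0.0012) and Pcdhgc5 (0.88 ± 0.14, adjusted p = 0.0015) rose further from WT. Both rises were called with library totals (0.40 and 0.62) and not on log2(TPM + 1) (0.13 and 0.18). Pcdhgc4, at 20.5 to 27.2 CPM in treated libraries, differed by -0.23 ± 0.13, adjusted p = 0.21. It was called lower with library totals (-0.50, adjusted p = 0.019), on log2(TPM + 1) (-0.63, adjusted p = 0.018) and without WT libraries, unpaired (-0.28, adjusted p = 0.029) and with the culture pair as a block (-0.28, adjusted p = 0.026).

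The Pcdhb genes kept their low level after Igfbp2. Of 21, 18 did not pass, and all 21 were lower in treated Ncf1-/- NSCs than in WT. Pcdhb19 was at 8.31, 8.89, 8.61 and 8.54 CPM in treated libraries, all below the untreated libraries, with a log2 fold change of -0.26 ± 0.13, adjusted p = 0.17, and it was called lower in the fit without WT libraries, both unpaired (-0.31, adjusted p = 0.02) and with the culture pair as a block (-0.31, adjusted p = 0.034). It was also called lower with library totals (-0.53, adjusted p = 0.012) and on log2(TPM + 1) (-0.33, adjusted p = 0.034). Pcdhb22, at 10.4 to 12.8 CPM, differed by -0.01. Pcdha12, at 6.53, 6.67, 6.03 and 7.90 CPM, differed by 0.42 ± 0.18, adjusted p = 0.11, and was called without WT libraries, unpaired (0.38, adjusted p = 0.026) and with the block (0.37, adjusted p = 0.043). It did not pass with library totals (0.15, adjusted p = 0.57) or on log2(TPM + 1), where it turned to -0.025 (adjusted p = 0.86).

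**Figure D5:**
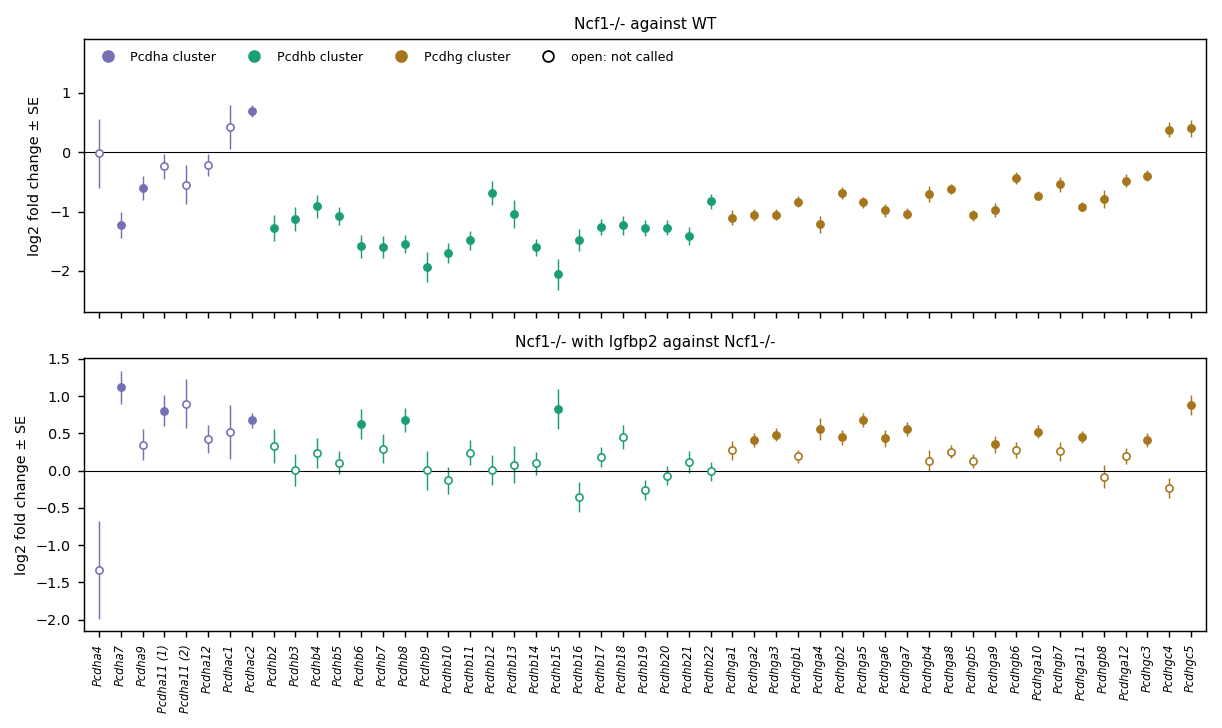
Log2 fold change with its standard error for the 51 clustered genes that averaged at least 1 CPM, in genome order within the Pcdha, Pcdhb and Pcdhg clusters, for Ncf1-/- against WT (top) and Igfbp2-treated against untreated Ncf1-/- (bottom); filled points were called at an adjusted p under 0.05. In the top panel every Pcdhb point and most Pcdhg points lie below 0 with the C-type genes at the cluster ends nearer to or above 0, and in the bottom panel the filled points lie above 0, most of them in the Pcdhg cluster.

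Set against WT, Igfbp2-treated Ncf1-/- NSCs had 58 of 80 members changed, 10 higher and 48 lower, beside 62.4% of all genes changed, 31.6% higher and 30.8% lower. This comparison uses the same treated libraries as the last one and the same WT libraries as the first. The delta-2 genes stayed apart from WT, with 1 of 5 higher and 4 lower and log2 fold changes of -1.55 for Pcdh10 and -1.70 for Pcdh17. For Pcdh8 the value was -3.34, and -3.93 without WT libraries 11 and 12. The Pcdhb sum was at -1.22 (adjusted p = 5.5e-07), the Pcdha sum at 0.55 (adjusted p = 4.1e-04) and the Pcdhg sum at -0.11 (adjusted p = 0.34). On log2(TPM + 1) the Pcdha sum did not pass (0.09, adjusted p = 0.67) and the Pcdhg sum was called lower (-0.53, adjusted p = 0.011). Among single genes, Cdh13 (1.33), Pcdhac2 (1.37), Pcdhgc5 (1.28) and Cdh4 (1.86) were higher than WT, and Cdh11 (-2.18) was lower. Of 4 Y-linked genes tested, 4 were lower in treated Ncf1-/- NSCs than in WT, with a median of -3.44, while Xist (1.68) was not called. Igfbp2 treatment and sex-linked expression can therefore not be told apart here either.

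The proteins that cadherins bind were read from lists of genes with a known role. Shares of all genes for reading these lists are 57.2% changed between the genotypes and 25.0% between the treatments, and nothing particular to a list was tested. Between the treatments 14.2% of all genes (2238) were higher and 10.7% (1685) lower with TMM factors. With library totals 648 were higher and 5258 lower, and on log2(TPM + 1) 200 and 6154. The lists were counted with TMM factors only, so their directions after Igfbp2 rest on that scaling. Of 15 catenins and adherens junction adaptors tested, 3 were higher and 9 lower in Ncf1-/- than in WT, with a median of -0.57, and 3 were higher and 1 lower after Igfbp2. Ctnna2, the neuronal alpha-catenin that ties cadherins to actin, went from 99.8 ± 28.9 CPM in WT to 16.2 ± 0.989 CPM in Ncf1-/- NSCs (mean ± SD, n = 4), a log2 fold change of -2.62 ± 0.18, adjusted p = 2.0e-07. The p120 relatives Pkp4 (-1.66) and Arvcf (-1.16) and the catenin-like Ctnnal1 (-1.24) fell, and Nectin4 (1.15) rose from a level under 1 CPM. Ctnnal1 fell again after Igfbp2 (-0.51 ± 0.16, adjusted p = 0.033). Of 14 other cadherin superfamily genes tested, 4 were higher and 8 lower in Ncf1-/- NSCs, and 6 were higher and 0 lower after Igfbp2. Celsr1, a multi-pass cadherin of planar polarity, was at 158, 179.7, 137 and 160.5 CPM in WT libraries 9 to 12, 26.3, 27, 28.8 and 35.6 CPM in Ncf1-/- libraries 1 to 4 and 44.4, 70.8, 55.8 and 70.5 CPM in Igfbp2-treated libraries 5 to 8. These 3 groups were separate, with log2 fold changes of -2.43 ± 0.16, adjusted p = 1.0e-07, and 1.04 ± 0.15, adjusted p = 0.001. Fat1, a giant atypical cadherin, had values of -1.41 and 0.83, with untreated and treated libraries overlapping. The desmosomal genes Dsc1 (2.86) and Dsc2 (2.80) and the photoreceptor gene Cdhr1 (2.0) rose from WT means under 1 CPM. Dsc1 stayed at 0.0968 to 0.653 CPM in Ncf1-/- libraries and overlapped with WT, and Dsc2 was at 2.35 CPM in WT library 11.

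Of 7 repressors and inducers of cadherin switching, 2 had enough counts: Zeb1 was higher (0.70 ± 0.14, adjusted p = 7.8e-04) and Zeb2 lower (-1.76 ± 0.14, adjusted p = 4.5e-07) in Ncf1-/- NSCs, and neither passed after Igfbp2. Of 16 genes for promoter choice and silencing at the protocadherin clusters, 5 were higher and 3 lower, with a median of 0.03, and after Igfbp2 0 were higher and 2 lower. None of these 16 reached a log2 fold change of 1 in size among those called. Among 16 effectors of clustered and delta protocadherins, 2 were higher and 8 lower in Ncf1-/- NSCs, and 5 were higher and 0 lower after Igfbp2. Cyfip2, a subunit of the WAVE complex to which several protocadherin tails bind, was at 1183, 1127, 484 and 935 CPM in WT and 57.5, 59.1, 59.2 and 66.9 CPM in Ncf1-/- libraries, a log2 fold change of -3.94 ± 0.24, adjusted p = 7.3e-08. WT library 11 was the lowest of the WT group and still above every Ncf1-/- library. Wasf1 of the same complex (-1.77) and the kinases Prkca (-1.90) and Fyn (-1.41) fell too, and Prkca was higher after Igfbp2 (0.48 ± 0.12, adjusted p = 0.013). Of 9 tested genes for the cleavage of cadherins 1 was higher and 2 lower between the genotypes, and 1 was higher and 0 lower between the treatments.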

How the data were processed

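RNA of 12 cultures (4 WT, 4 Ncf1-/- and 4 Igfbp2-treated Ncf1-/-) was depleted of rRNA and sequenced. Per the labels and methods, the authors mapped reads with Bowtie2 and quantified genes with RSEM on GRCm38 (versions not given in the sources used here). The deposited files give, per gene and library, the expected count (reads per gene as RSEM estimates them, not normalized), the TPM (adjusted for length and scaled by the authors to 1 sum in every library) and the FPKM, which was not used. TPM therefore hold no depth. A merged table, also deposited by the authors, sums the TPM over the transcript rows of an annotation table, was treated as a score, and gave only the gene symbols.

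The members and lists were chosen with earlier results of these data known. Expected counts were rounded (56.4% of the nonzero member values were not whole), filtered with filterByExpr, scaled by TMM factors and fitted in edgeR 4.0.16 (R 4.3.3) with a mean per group over all 12 libraries; glmQLFTest p-values were adjusted by Benjamini-Hochberg over 15706 genes and called under 0.05. This fit has no term for the culture pair. CPM are TMM-scaled, levels per kilobase divide CPM by RSEM's effective transcript length, and the ± of a fold change is its standard error. Cluster sums were fitted in place of their genes. Pairing of treated and untreated libraries follows the study, which matches them by preparation; Y-linked levels go against it. With group means taken off, pairs of 1 preparation correlated between -0.0673 and 0.0328 across genes (4 pairs) and those of different preparations between -0.248 and 0.257 (12 pairs). Replicates were checked for duplicates: for the most similar pair, chi-square divided by its degrees of freedom was 4.63. Standard errors of log2 fold changes had a median of 0.14 in each comparison.

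Members named with values average at least 1 CPM, apart from those named by role, and are the 6 most abundant non-clustered members per kilobase, up to 5 called non-clustered members at either extreme of the fold changes in each of 2 comparisons, the 2 most abundant genes of each cluster, and Cdh1, Cdh2, Cdh5 and 4 C-type genes by role. From the partner lists, up to 5 called genes per list are named, where their log2 fold change was 1 or more in either direction; Zeb1, Pcdh7, Pcdh11x, Pcdh19 and the genes at the ends of the Pcdhb range were added after their values were seen. Partner symbols were matched directly or through RefSeq synonyms, and Nectin2 was not analysed here. Coordinates and gene names are from GENCODE on GRCm38, and upstream windows from RefSeq. Alternatives were DESeq2 1.42.0, library totals, fitting unfiltered genes or those averaging 5 CPM or more, limma 3.58.1 on log2(TPM + 1) and log2(TPM + 0.1), fitting 2 groups at a time, blocking on the culture pair, a log2 fold change of at least 1 and each library left out. Leaving out WT libraries 11 and 12 together was added after seeing the data. The fits were tested on simulated counts.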

Additional observations from a re-analysis of the deposited data

Results flagged for a closer look

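Of 96 groups of 4 libraries examined, 3 had a library far from the other 3 by Dixon's ratio of the gap to the range (above Dixon's 95% critical value), a test that chance passes in about 1 of 20 groups. Cdh19 in Ncf1-/- library 4 was at 44.7 CPM, with the nearest library at 39.1 CPM (ratio 0.916). Cdh20 in the same library was at 125 CPM, with the nearest at 109 CPM (ratio 0.84). The sum of delta-1 protocadherins in WT library 11 was at 343 CPM, with the nearest at 447 CPM (ratio 0.849).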

How the results depend on the processing

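The counts and sums between the genotypes kept their direction under the alternatives, apart from the Pcdha sum, while those between the treatments depended on the scaling. A log2 fold change of at least 1 was reached by 38 members called between Ncf1-/- and WT, 3 between the treatments and 26 between treated Ncf1-/- and WT. The share of all genes at this threshold was not counted, so these counts cannot be read as particular to the members. Between the treatments limma called 14 members on log2(TPM + 1) and 15 on log2(TPM + 0.1), against 24, and of the 24 calls 4 were kept on either; library totals kept 11 and called 8 others. Over all genes the count of 3923 became 6354 on log2(TPM + 1), 6519 on log2(TPM + 0.1), 5906 with library totals and 6028 without WT libraries 11 and 12. Leaving out 1 library gave 2294 to 4872. With 1 library left out, members called were 60 to 66, 16 to 29 and 54 to 60 in the 3 comparisons. In the order Pcdha, Pcdhb and Pcdhg, the sums were then -0.10 to 0.054, -1.40 to -1.23 and -0.57 to -0.50 between the genotypes. They were 0.51 to 0.60, -0.011 to 0.11 and 0.35 to 0.44 between the treatments.

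The Pcdha sum between the genotypes, -0.01, was 0.17 with library totals and 0.0011 without WT libraries 11 and 12. Between the treatments the Pcdha sum was 0.29 with library totals and 0.11 on log2(TPM + 1), the Pcdhb sum -0.19 and -0.29, and the Pcdhg sum 0.13 and -0.089. Treated Ncf1-/- against WT on log2(TPM + 1) gave 0.088 for Pcdha and -0.53 for Pcdhg, the latter called. Summed TPM in place of CPM changed the class levels between the treatments to -0.088 for delta-1, -0.33 for delta-2, -0.27 for type I, -0.43 for type II, 0.60 for other Cdh and -0.57 for other Pcdh, on the log2 scale. Pcdhgc3 was -0.0697 on log2(TPM + 1) and -0.0703 on log2(TPM + 0.1) between the treatments and -0.41 on both against WT, and Pcdh9 was -0.0858 and -0.0899 between the treatments. The cause of these changes was not tested. Fitted without the WT libraries and unpaired, 36 of 77 members tested were called between the treatments, 29 higher and 7 lower, and 5709 of 15101 genes, with 23 of the 24 calls kept. With the culture pair as a block added to that fit, 34 were called, 27 higher and 7 lower, and 5434 genes, with 21 of the 24 kept, so that the larger counts were there without the pair. The sums were 0.51, 0.03 and 0.35 with the block, with the same calls. The calls that the block changed among named members are given beside them, and it changed no other call among these. Counts limit members under 1 CPM, where 3 counts were worth 0.0860 to 0.180 CPM.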
